A study of Homo sapiens with 6 samples.

Results

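Proteasome subunit genes were examined in RNA-seq counts from CAL27, an established line of human tongue carcinoma cells. They were taken as the protein-coding genes whose symbol is PSM, a family letter from A to G and a number, which gave 46 of the 23384 genes in the table. These are 7 PSMA, 10 PSMB, 6 PSMC, 14 PSMD, 4 PSME, 1 PSMF and 4 PSMG genes. PSMA8 and PSMB11 were not analysed here. Control cells (3 libraries) were wild type and had been transfected with a vector. The other 3 libraries carry the genotype TNFAIP2 overexpression after transfection with a plasmid for it, and are called plasmid libraries here. Replicates 1 to 3 are written V1 to V3 for the vector controls and P1 to P3 for the plasmid libraries. Both groups were grown in DMEM with fetal bovine serum, and no difference other than the plasmid is named in the labels. Separate cultures are not named for the libraries, and p-values therefore measure a spread that may be technical. The plasmid's promoter, the time after transfection and any clonal selection are not stated by the labels.

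The proteasome is the protease complex that degrades proteins tagged with ubiquitin. Its barrel-shaped core is built of rings of alpha subunits (PSMA genes) around rings of beta subunits (PSMB genes), of which 3 kinds cut peptide bonds. A regulatory particle made of a base with ATPases (PSMC genes) and a lid (most PSMD genes) binds ubiquitin, unfolds the substrate and feeds it into the core, and activators (PSME genes) can take its place. The complex removes the inhibitor IκBα when NF-κB is activated, and the title of the series concerns degradation of the kinase IKKβ by this route.

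Libraries held from 3092261 to 3527161 counts. Counts under the name TNFAIP2 ran from 112 to 194 with overlapping groups. Its log2 fold change (plasmid minus control) was -0.21 (SE 0.28, adjusted p = 0.881 by edgeR). This leaves the labels unchecked, so groups are named only as labelled. In bulk RNA, fewer cells of a type and less RNA per cell cannot be told apart. Levels are in CPM, counts per 1000000 after TMM scaling, a correction for library composition. All 9 listed epithelial markers were tested. They summed to 6835 to 8829 CPM in controls and 6195 to 6896 CPM in plasmid libraries. Markers of fibroblasts, endothelium and leukocytes summed to at most 11.9 CPM in any library, with DCN, LUM, PECAM1, VWF, KDR, PTPRC and MS4A1 at 0 or not analysed here. At many loci of this table most reads lie on a feature of the strand opposite the gene. The own-strand ratio measures this per library as the median, over 368 features with at least 90% of their exonic bases inside exons of a protein-coding gene on the other strand, of the gene's count divided by the feature's count. It was 0.102, 0.0993 and 0.180 in V1 to V3 and 0.198, 0.134 and 0.192 in P1 to P3. The groups overlapped (two-sided exact permutation p = 0.2, with 0.1 the smallest this design allows). Without the proteasome genes, which contribute 1 of the 368 features, the ratio in V3 was likewise 0.180.

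Not a single proteasome gene was called as different with the plasmid. Of the 46 genes, 45 had enough counts for the edgeR test, the exception being PSMA2. An adjusted p under 0.05 was reached by 0 of these 45, beside 0.0% of all 11851 genes tested. An unadjusted p under 0.05 was reached by 1, PSMG4, against a background of 4.89%. Groups did not overlap, with plasmid libraries higher, for 0 of the 45 (background 5.54%) and, with them lower, for 1, PSMD6 (background 4.92%). Over protein-coding genes alone these shares were 6.79% and 3.32%. DESeq2, which called 0.0253% of all genes, and limma-voom, which called 0.00844%, called 0 of the 45 as well.

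Most log2 fold changes (plasmid minus control) were nevertheless above 0, at 36 of 45, with a median of 0.25. Over all genes tested 51.9% were above 0 with a median of 0.02, and over protein-coding genes 62.0% with a median of 0.13. The core had 14 of 16 above 0 (median 0.26), of which PSMA genes had 5 of 6 (median 0.25) and PSMB genes 9 of 10 (median 0.28). Base and lid had 16 of 20 (median 0.31), of which PSMC genes had 5 of 6 (median 0.31) and PSMD genes 11 of 14 (median 0.29). The PSMD genes include PSMD5, PSMD9 and PSMD10, which encode chaperones that assemble the base. Activators had 4 of 4 (median 0.31), the inhibitor gene PSMF1 had 0.04, and the chaperones that assemble the core had 1 of 4 (median -0.15). Classes were not tested against each other. The plot of fold changes shows a standard error larger than the fold change for most of these genes.

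**Figure D1:**
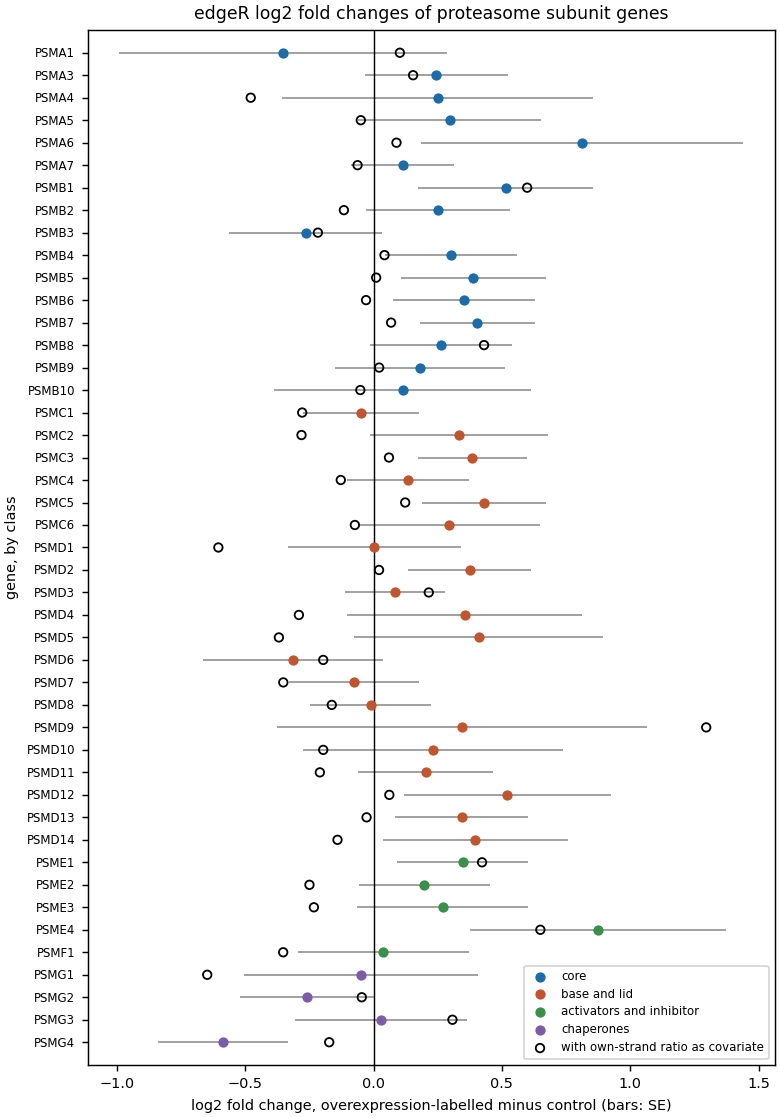
Log2 fold changes of the 45 tested proteasome genes (x axis, plasmid minus control, bars are SE) by gene and class (y axis), with open circles for the fit that adjusts for the own-strand ratio. Filled points lie above 0 for 36 of 45 genes and open circles for 18 of 45.

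The level of proteasome genes varied more among the 3 controls than between the means of the groups. The summed level of the 46 genes was 2922 ± 736 CPM in controls and 3408 ± 358 CPM in plasmid libraries (SD, n = 3). Together they took 0.209, 0.236 and 0.391% of all counts from V1 to V3 and 0.406, 0.300 and 0.374% from P1 to P3. V1, V2 and P2 were thus the lowest, and these are the libraries with the lowest own-strand ratios. V3 was the highest control for 31 of the 45 tested genes (68.9%), against 48.2% of protein-coding genes and 39.3% of all genes. Its CPM was a median of 1.55 times the mean of the other controls, against 1.15 times for protein-coding genes and 0.993 times for all genes. The summed level of base and lid genes was 2.12 ± 0.0973 times that of core genes in controls and 2.13 ± 0.0798 times in plasmid libraries. By class, the median ratio of V3 to the other controls was 1.46 for the core, 1.68 for base and lid, 1.70 for activators and inhibitor, and 0.757 for the chaperones.

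**Figure D2:**
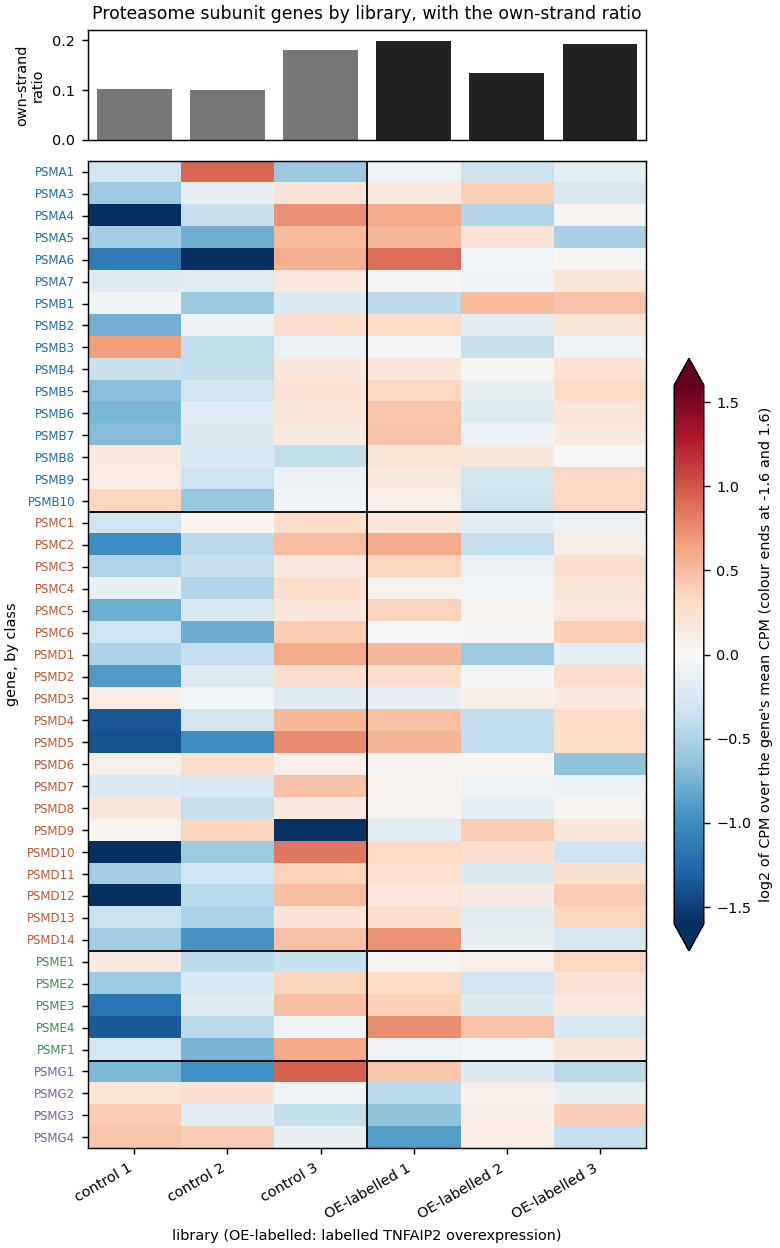
Heat map of the 45 tested proteasome genes (rows, by class) in the 6 libraries (columns), coloured by log2 of CPM over the gene's mean, under a bar chart of the own-strand ratio (a ratio with no unit). V1 and V2, with ratios of 0.102 and 0.0993, are blue for most genes, and V3, with 0.180, is red for most (V1 to V3 are drawn as control 1 to 3, and P1 to P3 as OE-labelled 1 to 3).

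Once the own-strand ratio entered the fit as covariate, 18 of 45 log2 fold changes were above 0 and the median was -0.05, beside 48.2% and a median of -0.01 for all genes. That fit called 0 of the 45. The ratio averaged 0.127 in controls and 0.175 in plasmid libraries, so adjusting for it can also remove part of a group difference. Without V3, edgeR called 10 of the 45 (22.2%) where 7.41% of all genes were called. Of the 10, 9 were higher, where 4.13% of all genes were called and higher. All genes here include features that are not protein-coding, for which no separate share is given. The 9 were PSMB7, PSMC3, PSMC5, PSMD2, PSMD4, PSMD5, PSMD12, PSMD14 and PSME3, with log2 fold changes from 0.59 to 1.37, and the lower one was PSMG4 at -0.75. The 2 controls kept in that fit have the lowest own-strand ratios of all libraries. The part of the ratio in any single gene's difference was not tested beyond these fits.

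Levels between genes were compared as CPM per kilobase of exon, averaged over the 6 libraries. They count reads under the gene's own name only and so do not rank the transcripts. The 4 highest were PSMB7 at 115 ± 29.6, PSMD2 at 92.8 ± 25.0, PSMC3 at 91.7 ± 20.6 and PSMA7 at 90.6 ± 10.2 (SD over 6 libraries). The ranges over the 6 libraries overlapped between these 4 genes. PSMD4 at 50.2 ± 20.9 and PSMD3 at 43.8 ± 4.32 followed, then PSMB6 at 35.6 ± 9.53 and PSMC4 at 33.4 ± 5.87. At the low end were PSMA6 at 0.971 ± 0.601, PSME4 at 0.805 ± 0.372, PSMD9 at 0.401 ± 0.146 and PSMA2 at 0.0256 ± 0.0281. Genes of the same family could lie far apart in these counts, with PSMA7 above and PSMA2 below among PSMA genes. Among PSMB genes, PSMB7 lay above PSMB10 (3.98 ± 0.995), which encodes an alternative to the PSMB7 subunit described below.

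Genes of the constitutive catalytic subunits lay higher in plasmid libraries on average, with overlapping groups. PSMB7 (ENSG00000136930, chromosome 9, 124353465 to 124415444, minus strand, GRCh38), the trypsin-like subunit, had 128, 177 and 227 CPM from V1 to V3 and 283, 193 and 229 CPM from P1 to P3. Its means were 177 ± 49.7 CPM over controls against 235 ± 45.2 CPM over plasmid libraries (SD, n = 3), a fold change of 0.40 on the log2 scale (SE 0.22, adjusted p = 0.830 by edgeR). V3 exceeded P2, and the adjusted p without that control was 0.0376 (log2 fold change 0.62). PSMB6 (ENSG00000142507, chromosome 17, 4796144 to 4798502, plus strand), the caspase-like subunit, had 31.1, 45.8 and 59.0 CPM from V1 to V3 and 70.3, 44.9 and 58.6 CPM from P1 to P3. The groups overlapped, and the difference was 0.35 on the log2 scale (SE 0.28, adjusted p = 0.834 by edgeR). PSMB5 (ENSG00000100804, chromosome 14, 23016543 to 23035230, minus strand), the chymotrypsin-like subunit that proteasome inhibitor drugs bind, had 27.1, 34.5 and 50.4 CPM from V1 to V3 and 54.4, 39.9 and 52.7 CPM from P1 to P3. The difference was 0.39 on the log2 scale (SE 0.28, adjusted p = 0.830 by edgeR). In all 3 genes V1 was the lowest library, and with the covariate the log2 fold changes were 0.07 for PSMB7, -0.03 for PSMB6 and 0.01 for PSMB5.

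Cells exposed to interferon make 3 alternative catalytic subunits, PSMB9, PSMB10 and PSMB8, which replace PSMB6, PSMB7 and PSMB5 to form the immunoproteasome, a source of peptides for class I antigen presentation. PSMB8 (ENSG00000204264, chromosome 6, 32840717 to 32844679, minus strand) had 39.0, 29.7 and 26.8 CPM from V1 to V3 and 40.0, 39.6 and 34.9 CPM from P1 to P3. All 3 plasmid libraries were above V2 and V3 but not all were above V1, and the difference was 0.26 on the log2 scale (SE 0.28, adjusted p = 0.855 by edgeR). PSMB9 (ENSG00000240065, chromosome 6, 32844136 to 32859851, plus strand) had 22.4, 16.5 and 19.5 CPM from V1 to V3 and 23.0, 16.9 and 26.1 CPM from P1 to P3, and PSMB10 (ENSG00000205220, chromosome 16, 67934506 to 67936864, minus strand) had 9.40, 4.84 and 7.08 CPM from V1 to V3 and 7.84, 5.83 and 9.32 CPM from P1 to P3. The groups overlapped in both, with differences of 0.18 on the log2 scale (SE 0.33, adjusted p = 0.908 by edgeR) for PSMB9 and 0.11 on the log2 scale (SE 0.50, adjusted p = 0.964 by edgeR) for PSMB10. Exons of PSMB10 share 644 bases with ENSG00000261884 on the same strand, and those of PSMB9 share 174 with PSMB8-AS1, so reads of these could be split or left uncounted. V3 was the highest control for none of these 3 genes and for all 3 constitutive ones. The summed CPM of the immunoproteasome genes was 0.381, 0.198 and 0.158 times that of the constitutive genes in V1 to V3, and 0.174, 0.225 and 0.206 times in P1 to P3. The groups overlapped, since V1 was the highest and V3 the lowest of the 6.

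**Figure D3:**
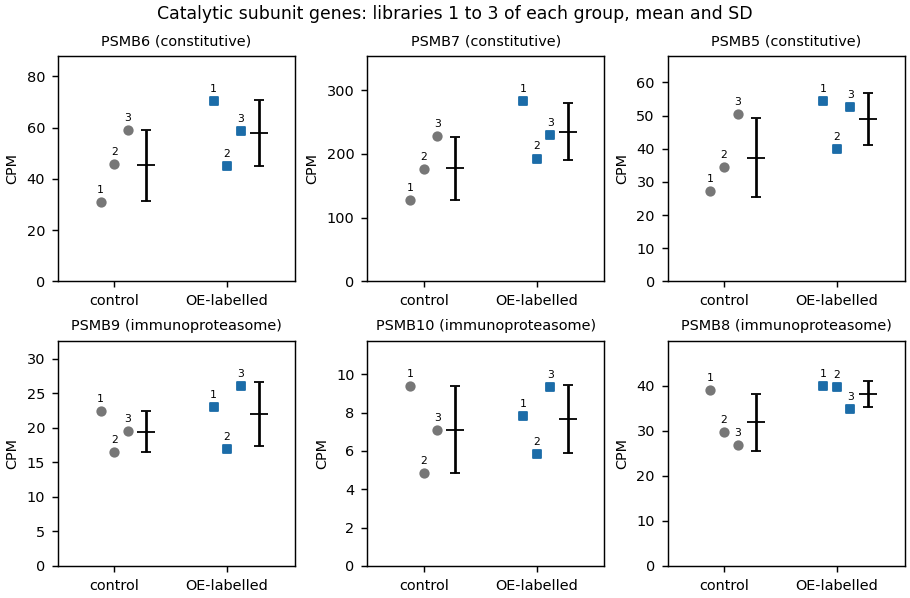
CPM (y axis, from 0) of the 3 constitutive catalytic genes (top) and the immunoproteasome genes that replace them (bottom) in control and plasmid (OE-labelled) libraries, numbered by replicate, with bars for the mean and SD of 3. For each of the 6 genes the range of the groups overlaps.

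Among the other core genes 0 were called as well. PSMA6, an alpha ring subunit, had the largest positive value of the core, 0.81 on the log2 scale (SE 0.63, adjusted p = 0.831 by edgeR), on few counts, with 8, 4 and 32 in V1 to V3 and 45, 21 and 24 in P1 to P3. The lowest value of the core was that of PSMA1, also in the alpha ring, at -0.35 on the log2 scale (SE 0.64, adjusted p = 0.905 by edgeR), with 10, 26 and 10 counts in controls and 16, 12 and 15 in plasmid libraries. V2 alone was high for PSMA1, and without it the log2 fold change was 0.27. PSMA2 had 0 counts in each control and 1 count in each plasmid library, so no fold is given. Among beta ring genes without a catalytic site, PSMB1 had a fold change of 0.51 on the log2 scale (SE 0.34, adjusted p = 0.830 by edgeR) and PSMB3 had a fold change of -0.26 on the log2 scale (SE 0.30, adjusted p = 0.859 by edgeR).

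The ATPases of the base had -0.05, 0.33, 0.38, 0.13, 0.43 and 0.29 as log2 fold changes for PSMC1 to PSMC6, with SE from 0.21 to 0.35. PSMC3 (ENSG00000165916, chromosome 11, 47418769 to 47426473, minus strand), the most abundant per kilobase, had 149, 163 and 231 CPM from V1 to V3 and 265, 196 and 248 CPM from P1 to P3. V3 lay inside the range of the plasmid libraries, and the adjusted p was 0.830. For all 6 ATPase genes V3 was the highest control, at 1.35 to 2.25 times the mean of the other controls.

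Of the PSMD genes, PSMD2 had the highest level. PSMD2 (ENSG00000175166, chromosome 3, 184299198 to 184309050, plus strand), the base scaffold that receives ubiquitin shuttle proteins, had 269.7, 438 and 615 CPM from V1 to V3 and 605, 502 and 608 CPM from P1 to P3. V1 was far below the other 5 libraries and V3 was the highest of all 6. Means were 441 ± 173 CPM over controls against 572 ± 60.6 CPM over plasmid libraries (SD, n = 3), a fold change of 0.37 on the log2 scale (SE 0.24, adjusted p = 0.830 by edgeR), and without V3 the log2 fold change was 0.69 (adjusted p = 0.0112). PSMD12 (ENSG00000197170, chromosome 17, 67337916 to 67366605, minus strand), a lid subunit, had 9.76, 23.5 and 44.8 CPM from V1 to V3 and 35.8, 35.0 and 42.1 CPM from P1 to P3. This was the largest positive value of base and lid, 0.52 on the log2 scale (SE 0.40, adjusted p = 0.834 by edgeR), and was 1.16 without V3 (adjusted p = 0.0193) and 0.06 with the covariate. PSMD6 (ENSG00000163636, chromosome 3, 64010550 to 64024010, minus strand), another lid subunit, had the lowest value, -0.31 on the log2 scale (SE 0.35, adjusted p = 0.859 by edgeR), with 18.1, 20.6 and 18.0 CPM from V1 to V3 and 17.3, 17.5 and 10.9 CPM from P1 to P3. It was the only one of the 45 genes whose groups did not overlap, although P1 and P2 lay less than 1 CPM below the lowest control.

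The ubiquitin receptor gene PSMD4 had 58.9, 122 and 219 CPM from V1 to V3 and 211, 115 and 186 CPM from P1 to P3 and a fold change of 0.35 on the log2 scale (SE 0.46, adjusted p = 0.881 by edgeR). The deubiquitinase gene PSMD14, whose product removes ubiquitin from substrates, had 26.4, 20.3 and 54.0 CPM from V1 to V3 and 64.0, 35.8 and 33.0 CPM from P1 to P3 and a fold change of 0.40 on the log2 scale (SE 0.36, adjusted p = 0.847 by edgeR). V3 was the highest of all libraries for PSMD4, and was higher than P2 and P3 for PSMD14. PSMD3, a lid subunit gene and the sixth in level per kilobase, had 235, 210.3 and 188 CPM from V1 to V3 and 198, 233 and 239 CPM from P1 to P3. Its V3 was at 0.844 times the mean of the other controls, and its difference was 0.08 on the log2 scale (SE 0.19, adjusted p = 0.927 by edgeR). PSMD9 shares 436 exonic bases with CFAP251 on the same strand. PSMD5, PSMD9 and PSMD10 encode chaperones that assemble the base and leave the finished particle. Their log2 fold changes were 0.41, 0.35 and 0.23, with SE of 0.48, 0.72 and 0.51. The other PSMD genes, PSMD1, PSMD7, PSMD8, PSMD11 and PSMD13, ran from -0.08 to 0.34.

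Activators cap the core without ATP. PSME1 (ENSG00000092010, chromosome 14, 24136163 to 24138967, plus strand) and PSME2 (ENSG00000100911, chromosome 14, 24143362 to 24147570, minus strand) encode the partners of an interferon-inducible activator. PSME1 had 58.9, 39.7 and 41.3 CPM from V1 to V3 and 54.6, 56.2 and 66.8 CPM from P1 to P3 and a fold change of 0.35 on the log2 scale (SE 0.25, adjusted p = 0.830 by edgeR). PSME2 had 59.3, 74.8 and 114 CPM from V1 to V3 and 111, 71.1 and 102 CPM from P1 to P3 and a fold change of 0.20 on the log2 scale (SE 0.26, adjusted p = 0.880 by edgeR). The partners differed in their controls, since V3 was 0.837 times the mean of the other controls for PSME1 and 1.69 times for PSME2. PSME3, which encodes a nuclear relative of this activator, had 39.0, 76.5 and 122 CPM from V1 to V3 and 114, 75.2 and 97.7 CPM from P1 to P3 and a fold change of 0.27 on the log2 scale (SE 0.33, adjusted p = 0.874 by edgeR). PSME4, a large nuclear activator, had the highest value of all 45 genes, 0.88 on the log2 scale (SE 0.50, adjusted p = 0.830 by edgeR), on 9, 19 and 27 counts in V1 to V3 and 53, 39 and 26 in P1 to P3. P3 lay below V3. PSMF1, which encodes a protein first described as an inhibitor of the core, had 24.2, 17.4 and 44.5 CPM from V1 to V3 and 27.4, 28.3 and 33.0 CPM from P1 to P3 and a fold change of 0.04 on the log2 scale (SE 0.33, adjusted p = 0.982 by edgeR).

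The chaperones PSMG1 to PSMG4 act in pairs to build the alpha ring and were the class with a negative median. PSMG4 (ENSG00000180822, chromosome 6, 3231403 to 3303373, plus strand) had 141, 136 and 94.6 CPM from V1 to V3 and 55.7, 112 and 80.1 CPM from P1 to P3. V1 and V2 were the highest and P1 the lowest, and P2 lay above V3. The difference was -0.59 on the log2 scale (SE 0.25, adjusted p = 0.830 by edgeR), with an unadjusted p of 0.0312, and its log2 fold change was -0.75 without V3 (adjusted p = 0.0211) and -0.17 with the own-strand ratio as covariate. Its partner PSMG3 (ENSG00000157778, chromosome 7, 1567332 to 1571005, minus strand) had 35.1, 23.5 and 20.3 CPM from V1 to V3 and 17.0, 28.6 and 34.9 CPM from P1 to P3 and a fold change of 0.03 on the log2 scale (SE 0.33, adjusted p = 0.986 by edgeR). In the other pair PSMG1 had a fold change of -0.05 on the log2 scale (SE 0.46, adjusted p = 0.984 by edgeR) and PSMG2 had a fold change of -0.26 on the log2 scale (SE 0.26, adjusted p = 0.853 by edgeR). Summed over the 4 genes the level was 240.4, 224 and 203 CPM in V1 to V3 and 138, 207 and 174 CPM in P1 to P3.

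Bases upstream of 6 genes described above are printed because they hold motifs of factors that respond to interferon or stress, which are known to act on proteasome genes. They come from RefSeq (GRCh38.p14) and run 5′ to 3′ on the gene's strand, with the match in capitals. For PSMB8 (chr6:32844094-32844122, minus strand, before 1 of 2 listed starts), PSMB10 (chr16:67936852-67936881, minus strand), PSME2 (chr14:24146619-24146648, minus strand) and PSMG4 (chr6:3258904-3258933, plus strand) these are the match and 10 bases on each side. For PSME1 (chr14:24135944-24136157, plus strand) and PSMD12 (chr17:67366628-67366827, minus strand) these are the part of the 250 bases before the start that lies upstream of any exon in GENCODE 29.
PSMB8: aactgtccttTTCTCGGAAaaggcagggg
PSMB10: gggtaaaggcGAAAGCGAAAgcaggaagta
PSME2: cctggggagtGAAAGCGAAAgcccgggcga
PSMG4: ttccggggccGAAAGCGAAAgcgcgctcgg
PSME1: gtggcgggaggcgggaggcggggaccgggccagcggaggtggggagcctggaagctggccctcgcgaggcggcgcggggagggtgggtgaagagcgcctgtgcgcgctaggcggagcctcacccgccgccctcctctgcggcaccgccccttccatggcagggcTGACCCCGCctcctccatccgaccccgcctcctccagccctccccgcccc
PSMD12: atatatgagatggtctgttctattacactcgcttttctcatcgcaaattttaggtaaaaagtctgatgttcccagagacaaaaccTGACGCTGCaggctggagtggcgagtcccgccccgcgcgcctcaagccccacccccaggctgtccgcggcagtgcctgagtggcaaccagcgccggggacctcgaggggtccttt
The window searched was the 250 bases before each start. Of the 46 genes, 40 had an entry, with 49 starts, and PSMA7, PSMB1, PSMB6, PSMB7, PSMD4 and PSMG3 had none. Both strands were searched for 4 motifs, and no matches in these windows overlapped. The interferon-stimulated response element, searched as GAAA, any 2 bases and GAAA again, was in 5 of 49 windows (10.2%), of PSMA4, PSMB4, PSMB10, PSME2 and PSMG4, against 3.02% of all 35116 windows in the table. PSMB10, PSME2 and PSMG4 held the same letters, GAAAGCGAAA, starting 21, 28 and 33 bases before the start. The gamma-activated site TTCNNNGAA was in 6 of 49 (12.2%), PSMB8 among them, against 6.57%. The core of the antioxidant response element, TGACNNNGC, bound by the stress-responsive factors NFE2L1 and NFE2L2, was in 13 of 49 (26.5%), among them PSME1, PSME2 and PSMD12, against 10.9%. The NF-κB motif, searched as GGGA and TTCC with any 2 bases between, was in 0 of 49, against 1.40%. The sites printed for PSMB8, PSMB10, PSME2 and PSMG4 lie in exons of GENCODE 29, whose starts differ from those of RefSeq there. These are matches of letters and not measured sites. The genes with the shared GAAAGCGAAA had log2 fold changes of 0.11, 0.20 and -0.59, and so did not lie on the same side of 0.

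At several proteasome loci a feature on the other strand held more counts than the gene. Exons of 16 of the 46 genes share at least 50 bases with exons of a feature on the opposite strand, in 20 pairs, and in 7 of the 20 the feature had more counts. The feature ENSG00000259972, a lncRNA, held 22.6 times the counts of PSMD7, a lid subunit gene, with means of 4758.5 and 210.2 counts per library. NRDE2 held 13.3 times the counts of PSMC1, FTSJ3 13.6 times those of PSMC5, PSMB8-AS1 14.7 times those of PSMB8 and the lncRNA ENSG00000279762 7.02 times those of PSMD11. These counts are of whole features, which lie only partly opposite the gene. The share of exonic bases opposite the gene was 25.5% for ENSG00000259972, 26.6% for NRDE2 and 16.8% for FTSJ3. It was 31.7% for PSMB8-AS1 and 19.6% for ENSG00000279762. A processed pseudogene opposite PSMA2 (ENSG00000234983), all of whose 1043 exonic bases overlap it, had a mean of 53.8 counts where PSMA2 had 0.5. The remaining pair of the 7 is PSMB9 and PSMB8, which overlap each other by 139 bases. NRDE2 and FTSJ3 are themselves protein-coding genes. The strand setting of the counting is not stated, and from which gene of such a pair the reads came was not tested.

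**Figure D4:**
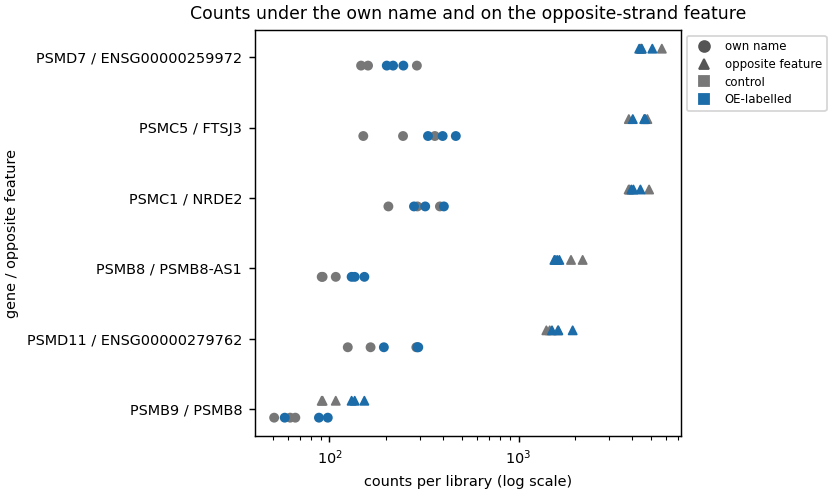
Counts per library (x axis, log scale) under the name of each proteasome gene (circles) and on the opposite-strand feature that had more (triangles), for 6 pairs (y axis), with control libraries in grey and plasmid (OE-labelled) libraries in blue. For PSMC1, PSMC5, PSMD7, PSMD11 and PSMB8 the triangles lie right of all circles, and the pair of PSMA2 is not drawn.

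In the other members with such a feature the gene had more counts. The most abundant features there were SIRT3 opposite PSMD13 (170.5 against 199 mean counts), SLC22A23 opposite PSMG4 (160.0 against 338), SPIRE1 opposite PSMG2 (94.0 against 147), ENSG00000235724 opposite PSMD14 (90.7 against 135), BECN1 opposite PSME3 (72.2 against 303.5), HTR2B opposite PSMD1 (30.3 against 136.5), RNF31 opposite PSME2 (27.8 against 306), PSMG3-AS1 opposite PSMG3 (11.2 against 88.8) and PSMD6-AS2 opposite PSMD6 (4.83 against 57.0). For PSMC5 and PSMD7 the opposite feature was read more evenly across libraries than the gene. FTSJ3, opposite PSMC5, had 4644, 4803 and 3832 counts in V1 to V3 and 4022, 4684 and 4625 in P1 to P3, while PSMC5 had 151, 245 and 361 and then 466, 332 and 397. The count of PSMC5 over that of FTSJ3 was therefore 0.0326, 0.0511 and 0.0943 in controls and 0.116, 0.0710 and 0.0859 in plasmid libraries. That of PSMD7 over its feature was 0.0334, 0.0280 and 0.0651 and then 0.0567, 0.0395 and 0.0485. For both genes, as for the ratio over contained features, V1 and V2 were the lowest.

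PSMB8-AS1 (ENSG00000204261, chromosome 6, 32844078 to 32846500, plus strand), a lncRNA that shares 618 exonic bases with PSMB8, was the feature with the lowest unadjusted p. It had 1895, 2184 and 1564 counts in V1 to V3 and 1548, 1644 and 1601 in P1 to P3. In CPM its means were 617 ± 135 CPM over controls against 437 ± 38.3 CPM over plasmid libraries (SD, n = 3), a fold change of -0.50 on the log2 scale (SE 0.20, adjusted p = 0.830 by edgeR). The groups overlapped through V3, without which the log2 fold change was -0.68 (adjusted p = 0.00758). That fit called 7.41% of all genes. With any other single library left out, the lowest adjusted p of PSMB8-AS1 by edgeR was 0.750, without P2. With the own-strand ratio as covariate the log2 fold change was -0.17. PSMB8 itself lay on the other side of 0, at 0.26. PSMB8-AS1 also shares 174 exonic bases on the same strand with PSMB9, so its reads cannot be given to the opposite of PSMB8 alone. Of the 20 features, 16 were tested, 5 had positive and 11 negative log2 fold changes (median -0.25), and 0 passed an adjusted p of 0.05. Of these 16, 10 are protein-coding, with 4 above 0 (median -0.25), beside the 62.0% and 0.13 of all protein-coding genes given above. PSMB8 and PSMB9, opposite each other, are 2 of these 4. The other 6 are not protein-coding, with 1 above 0 (median -0.20), beside 19.1% and -0.28 of all tested features that are not protein-coding.

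Genes that work with the proteasome held no call either, and in the 4 lists that follow 0 genes had an unadjusted p under 0.05 and DESeq2 and limma-voom called 0. All 24 listed partners (receptors, deubiquitinases, shuttles, unfolding factors and transcription factors) were tested. Log2 fold changes were positive for 19 and negative for 5, with 0 passing in either direction (median 0.21, and 10 positive with the covariate). The most abundant was ADRM1, a ubiquitin receptor of the base. ADRM1 had 289 ± 76.8 CPM over controls against 274 ± 24.7 CPM over plasmid libraries and a fold change of -0.08 on the log2 scale (SE 0.21, adjusted p = 0.938 by edgeR). The shuttle gene RAD23B had 176 ± 37.4 CPM over controls against 204 ± 36.5 CPM over plasmid libraries and a fold change of 0.21 on the log2 scale (SE 0.21, adjusted p = 0.853 by edgeR) (SD, n = 3, here and for the genes that follow).

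The genes for ubiquitin and its activating enzymes were higher on average in the plasmid libraries for all but UBA6, and for 4 of 6 the groups did not overlap. Log2 fold changes were positive for 5 of 6 (median 0.32) and 0 passed, with a lowest adjusted p of 0.830. With the own-strand ratio as covariate 5 of 6 were positive (median 0.23). UBB, which encodes a chain of ubiquitin units, had 199.9, 176 and 191 CPM from V1 to V3 and 235, 219 and 258 CPM from P1 to P3, a fold change of 0.33 on the log2 scale (SE 0.19, adjusted p = 0.830 by edgeR). All 3 plasmid libraries were above all 3 controls. RPS27A, in which ubiquitin is fused to a ribosomal protein, had 147, 133 and 119 CPM from V1 to V3 and 178, 155 and 166 CPM from P1 to P3, a fold change of 0.32 on the log2 scale (SE 0.20, adjusted p = 0.830 by edgeR), and its groups did not overlap either. The same order held for the activating enzyme gene UBA1, which is named after its values were seen, at 0.34 (SE 0.22) on the log2 scale. The 4 of 6 stand beside the 5.54% of all genes given above and 6.79% of protein-coding genes. With the covariate the log2 fold changes were 0.27 for UBB, 0.38 for RPS27A and 0.19 for UBA1.

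The ligase that marks IκBα for the proteasome had 4 of its 5 listed genes tested, with 2 positive and 2 negative values and 0 passing (median -0.09). CUL1, its scaffold, had 28.3 ± 0.719 CPM over controls against 31.8 ± 2.92 CPM over plasmid libraries. The adaptor gene SKP1 had 16.1 ± 3.70 CPM over controls against 12.5 ± 3.65 CPM over plasmid libraries, and the RING subunit gene RBX1 had 15.0 ± 5.90 CPM over controls against 9.58 ± 2.14 CPM over plasmid libraries. Groups overlapped for all 3. Of 9 genes of class I peptide loading and its regulators, 5 were positive and 0 passed (median 0.20, and 2 positive with the covariate). The trimming peptidase gene ERAP1 had 331 ± 41.9 CPM over controls against 263 ± 23.9 CPM over plasmid libraries. B2M, the light chain of class I molecules, had 66.2, 98.7 and 211 CPM from V1 to V3 and 174, 133 and 126 CPM from P1 to P3, and so was higher in V3 than in the other controls, as most proteasome genes were. IRF1, a transcription factor that induces immunoproteasome genes, had 72.7, 82.9 and 78.7 CPM from V1 to V3 and 65.3, 63.2 and 54.6 CPM from P1 to P3, a fold change of -0.36 on the log2 scale (SE 0.23, adjusted p = 0.830 by edgeR). Its plasmid libraries were all below its controls, beside the 4.92% of all genes given above and 3.32% of protein-coding genes.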

How the data were processed

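RNA-seq was done in 6 libraries of CAL27 cells, 3 per group. The deposited values are raw read counts per gene, 1 column per library. A stranded mRNA kit was used, per the labels' protocols. The submitters' processing notes name HTSeq 0.13.5 as well as HISAT2 2.2.0, Trim Galore 0.6.4 and the build GRCh38. The strand setting of the counting and its annotation release were not given in the sources used here. Gene coordinates are those of the deposited table.

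Counts were tested with edgeR 4.0.16 (quasi-likelihood test, TMM scaling, filterByExpr, Benjamini-Hochberg adjustment over all 11851 genes tested, threshold 0.05) in R 4.3.3, after the scripts had been tested on simulated data. Alternatives were DESeq2 1.42.0, limma-voom (limma 3.58.1), RLE scaling, library totals, no filter, protein-coding rows only, a replicate block, the own-strand ratio as covariate and leaving out each library. CPM values use TMM library sizes. Exon lengths and overlaps of at least 50 bases come from GENCODE 29, whose release is not known to be that of the counts, with exon models for 22828 of the 23384 genes. The own-strand ratio used features with at least 60 counts and 0.5 added to each count. Replicates of a group differed beyond sampling noise (chi-square per degree of freedom 5.07 to 19.4), so none was merged.

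Genes given with full values were, by rule, the catalytic subunits, activators and inhibitor, the most abundant member and the largest positive and negative log2 fold change of each class, and any member with an unadjusted p under 0.05. Of each pathway list the 3 most abundant genes were to be named with their levels. Values of some other members are given too, and the rest are only counted in their class or drawn in the figures. Some genes of the pathway lists, among them some chosen by that rule, are counted but not reported here by name. The members and lists were chosen with earlier results of these data known.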

Additional observations from a re-analysis of the deposited data

How the results depend on the processing

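Over all genes, edgeR called 0, DESeq2 called 3, limma-voom called 1 and edgeR without the filter called 3, and leaving out 1 library gave 0 to 922 calls. The most came without V3. Of the proteasome genes, 0 to 10 were called when 1 library was left out, and every one of the 10 came without V3. The number with a positive log2 fold change was 36 and fell to 18 with the own-strand ratio as covariate. With protein-coding rows only it was 31 (median 0.16), beside 51.4% and a median of 0.01 for all genes of that fit. The log2 difference in own-strand ratio itself was 0.50 and ran from 0.35 to 0.78 with 1 library left out. Over all genes tested, deviations of same-numbered libraries from their group means correlated at -0.25, 0.15 and -0.05, and those of V3 and P1 at 0.35. Such correlations cannot show whether the numbers mark a shared culture, which the labels do not state. With the replicate block 0 proteasome genes were called and 38 were positive. For the 18 proteasome genes named by rule and 14 opposite features, 412 of 442 values kept their direction and 30 turned, in 11 of the 32. For the other 27 tested proteasome genes, 46 of 378 values turned, in 21 of the 27. Of these 46, 14 came with the covariate, 1 each with DESeq2, RLE scaling and no filter (PSMD1), and 4 with library totals (PSMC1, PSMD7, PSMD8 and PSMG1). Of the pathway genes given with values, ADRM1, RAD23B and B2M turned with the covariate. ADRM1 turned also with library totals and without V1, and B2M also without V1. Of those named without values, UBA6 turned without V3 and without P2. NFE2L1 and NFE2L2 turned with the covariate, NFE2L2 also in other fits. The cause was not tested. Protein-coding rows only gave PSMF1 -0.051, PSMG3 -0.096 and PSMB10 -0.011. The covariate gave PSME2 -0.25, PSME3 -0.23, PSMF1 -0.35, PSMA1 0.10, PSMB10 -0.051, PSMB6 -0.029, ENSG00000234983 0.29, FTSJ3 0.043 and ENSG00000279762 0.090. Library totals gave ENSG00000234983 0.10 and ENSG00000279762 0.091, and limma-voom gave ENSG00000234983 0.0087. With 1 library left out, PSME3 ran from -0.056 to 0.72, PSMF1 from -0.20 to 0.50, PSMG3 from -0.21 to 0.29, PSMA1 from -0.63 to 0.27, PSMB10 from -0.070 to 0.36, ENSG00000234983 from -0.27 to 0.38, ENSG00000279762 from -0.20 to 0.017 and ENSG00000235724 from -0.14 to 0.28. Library totals moved the median of all genes from 0.02 to 0.18, and the median of the proteasome genes from 0.25 to 0.40. The SE of PSMA1, PSMA6 and PSMD9, which had few counts, was above 0.60, and whether depth or spread between libraries set it was not tested.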

Other observations

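Features named after proteasome genes without being subunits numbered 19, of which 11 were pseudogenes and 6 lncRNAs. The pseudogenes held 0 to 8 counts in any library and none was tested. How many reads matching both a subunit gene and such a copy were split or dropped was not tested. The protein-coding gene PSMC3IP, whose product acts in meiotic recombination and is no proteasome subunit, was read 456, 705 and 614 times from V1 to V3 and 533, 622 and 463 times from P1 to P3, with -0.37 as its log2 fold change (SE 0.21, adjusted p = 0.830 by edgeR). PSME3IP1, whose product binds that of PSME3, had 60, 88 and 98 counts and then 151, 69 and 115, with a log2 fold change of 0.19. The lncRNA PSMA3-AS1 had 20, 43 and 46 counts and then 49, 44 and 59, with a log2 fold change of 0.25. The groups overlapped for all 3.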
